A study of Mus musculus with 6 samples.

Results

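Tissue-restricted microRNAs of skeletal muscle, heart, liver, nervous system and red cells were examined in macrophages with and without Dicer. The members were chosen by name: miR-1, miR-133a, miR-133b and miR-206 of muscle, miR-208 of heart, miR-122 of liver, miR-124 and miR-9 of the nervous system, and miR-486 of the erythroid lineage. Of these 9 miRNAs, 8 had an assay among the 596 miRNA assays of the deposited threshold cycle table, and miR-206 was not analysed here. Macrophages were grown for 7 days from femoral bone marrow of male mice aged 6 to 8 weeks, in medium containing L929-conditioned supernatant, and miRNAs were measured by TaqMan RT-PCR after preamplification. There were 3 WT mice, of genotype LysM-Cre/Dicerwt/wt/Apoe–/–, and 3 KO mice, of genotype LysM-Cre/Dicerflox/flox/Apoe–/–. Both groups thus carried the Cre transgene and lacked Apoe, and they differed in the floxed Dicer alleles. The LysM promoter drives Cre in myeloid cells, so a macrophage may still hold miRNAs made before its Dicer gene was deleted. The panel had no assay of Dicer, and the labels were therefore not checked at the targeted gene.

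A mature miRNA is cut by Dicer from a hairpin precursor and guides an Argonaute protein to mRNAs that pair with its seed, bases 2 to 8. miR-1 and miR-133 are encoded together and promote and restrain muscle differentiation, miR-208 is embedded in a cardiac myosin gene, miR-122 is the dominant miRNA of hepatocytes, and miR-124 and miR-9 act in neuronal differentiation. miR-486 accumulates in erythroid cells, and miR-9 has also been described as inducible in monocytes and neutrophils. Levels of these miRNAs in a macrophage culture show whether each assay came up outside its lineage. No muscle, liver, neural or erythroid sample was run, so restriction to a lineage was not itself tested.

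The mature sequences are shown because each TaqMan assay reads a single mature strand, and only 1 of the 3 members printed here, miR-9, was detected in most samples. RefSeq sequences (GRCm38.p6) were matched for 3 of the 8 assayed members, with the seed in capitals:
miR-9-5p: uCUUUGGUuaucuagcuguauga
miR-133b-3p: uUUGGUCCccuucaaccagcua
miR-208a-3p: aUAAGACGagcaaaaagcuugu

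The same miR-9-5p sequence of 23 bases is encoded at 3 loci, all on the plus strand: chr3:88215613-88215635 (Mir9-1), chr7:79505279-79505301 (Mir9-3) and chr13:83738821-83738843 (Mir9-2). Because the mature sequence is the same, the assay cannot tell which locus made the product. Each locus lies within the annotated span of a long noncoding RNA gene, respectively Gm3764, Mir9-3hg and C130071C03Rik. miR-133b-3p lies at chr1:20682834-20682855 on the plus strand, within the span of the noncoding gene Lincmd1. The assay named miR-208 was matched to miR-208a-3p, as RefSeq lists that older name for Mir208a, at chr14:54949072-54949093 on the minus strand within the span of Myh6. Among the 1679 mature miRNAs of the table used, the seeds of miR-9-5p and miR-133b-3p occurred in no other entry, and that of miR-208a-3p also in miR-208b-3p.

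The threshold cycle (Ct) is the PCR cycle at which signal appears. It falls by 1 when template doubles, and wells without amplification were given as Ct 40. An assay was called detected below Ct 35. All 8 members lie in the first of 2 blocks of assays, called pool A, in which 5 endogenous small RNA controls had mean Ct values of 19.1 to 22.8. The latest controls were those of KO replicate 1 (mean Ct 22.8), in which 36.7% of all miRNA assays were detected, beside 46.5% and 48.7% in the other KO samples and 51.5% to 51.8% in WT. A signal at Ct 35 stands 4580-fold below the control mean in KO replicate 1 and up to 60902-fold below it in WT replicate 3. The reach toward low levels was therefore shortest in KO replicate 1. Amplification efficiency was not measured, so Ct values of different assays show only roughly which miRNA is more abundant.

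Of the 8 members, 5 were at Ct 40 in all 3 WT and all 3 KO samples: miR-1, miR-133b, miR-208, miR-122 and miR-486. For miR-1 this holds by the names of the Ct table, which another deposited table contradicts. The share of 62.5% compares with 36.9% of all 596 assays at Ct 40 in all 6 samples. Of the 48 member wells 8 were below Ct 35 (16.7%), beside 47.8% of all miRNA wells, and the other 40 were all at Ct 40, with none between. These shares of all assays cover both blocks, while all 8 members lie in pool A. There, 153 (KO replicate 1) to 197 (WT replicate 1) of 335 miRNA assays were detected per sample. In the second block, pool B, it was 66 to 117 of 261. miR-9 was detected in 3 WT and 2 KO samples, miR-133a in 1 WT and 1 KO sample, and miR-124 in 1 WT sample. No member was detected in all 6 samples, whereas 201 of the 596 assays were.

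**Figure D1:**
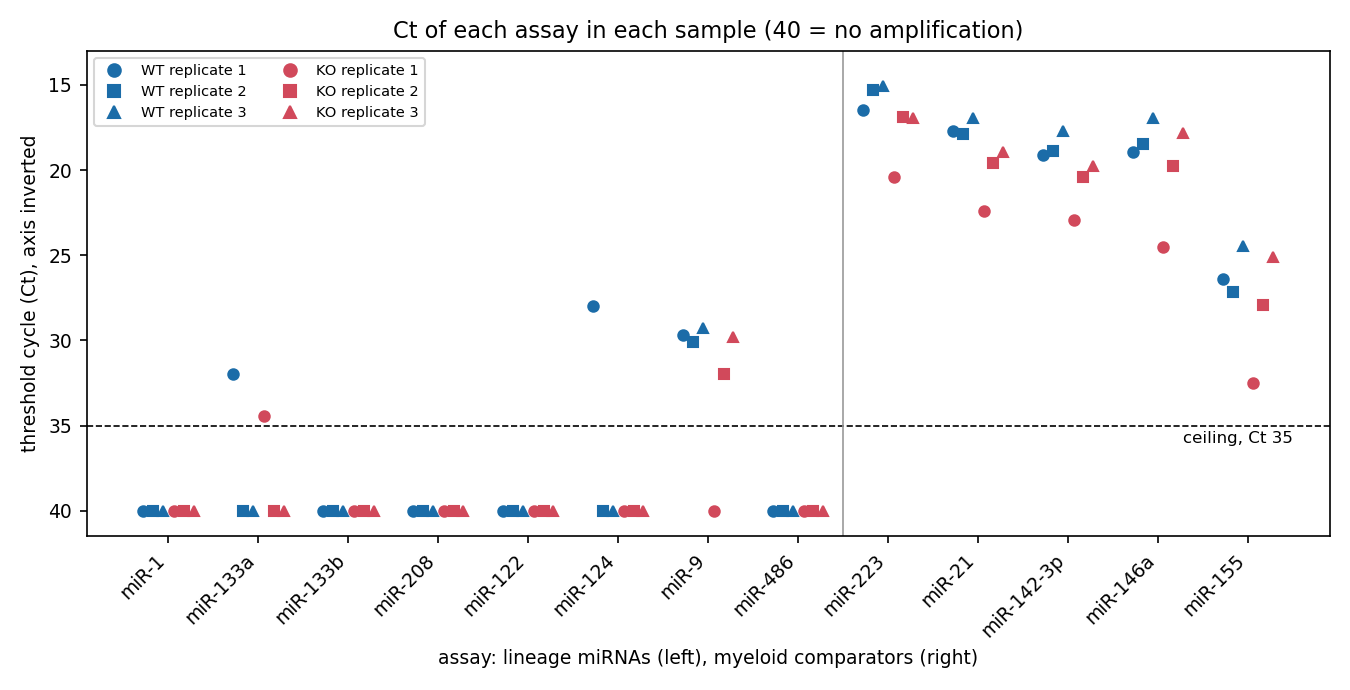
Ct of the 8 lineage miRNAs (left of the grey line) and 5 myeloid miRNAs (right) in each of 3 WT (blue) and 3 KO (red) samples, on an inverted axis so that abundant miRNAs lie at the top; the dashed line is the ceiling at Ct 35 and wells without amplification are at 40. The 5 myeloid miRNAs were measured in every sample, while 5 lineage miRNAs lie at 40 throughout.

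Myeloid miRNAs were read in other wells of the same samples and pool. miR-223, a miRNA of the granulocyte and macrophage lineage, came up at Ct 16.5, 15.3 and 15.0 in the WT samples, and at 20.4, 16.9 and 16.9 in the KO samples. The values of miR-142-3p, a general haematopoietic miRNA, ranged from 17.7 to 23.0, and those of miR-146a, an inhibitor of Toll-like receptor signalling, from 16.9 to 24.5. miR-21 ranged from 17.0 to 22.4 and miR-155, which rises on macrophage activation, from 24.5 to 32.5. These 5 comparators, which macrophages carry, were thus below Ct 35 in all samples.

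Between 1 and 3 members were detected per sample. WT replicate 1 had 3 (miR-9, miR-133a and miR-124), and WT replicates 2 and 3 had 1 each, miR-9. KO replicate 1 had 1, miR-133a, and KO replicates 2 and 3 had 1 each, miR-9. The mean was 1.67 ± 1.15 in WT and 1.0 in each KO sample (SD, n = 3 per group). The difference of -0.67 came from WT replicate 1 alone and was 0 without it. An exact permutation test is void here, since only 1 of the 6 counts differs from the rest and every relabelling gives a difference of the same size.

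**Figure D2:**
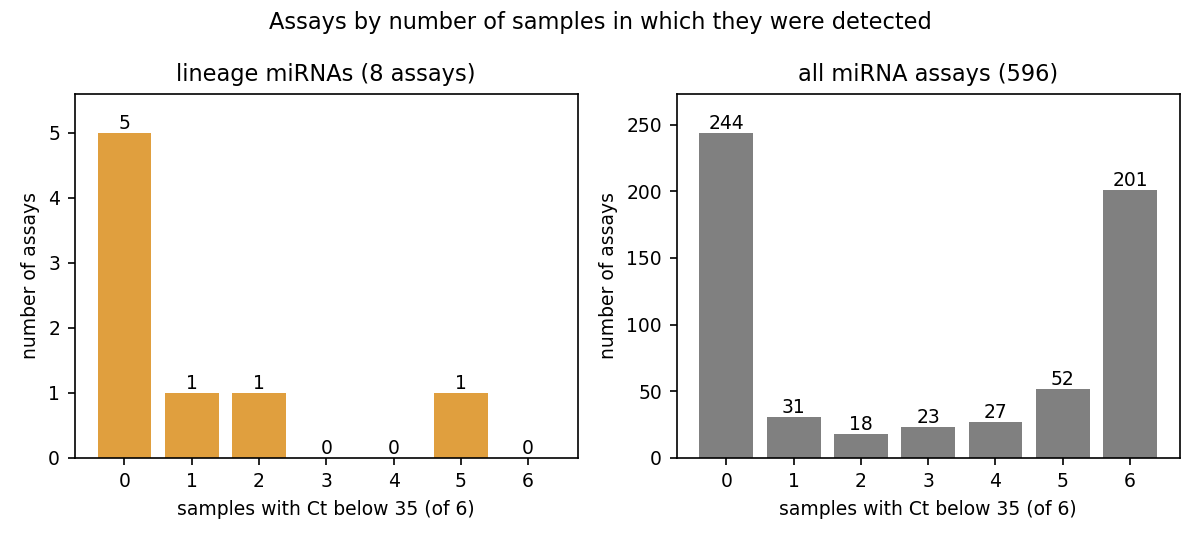
Number of assays (y axis) by the number of samples, out of 6, with Ct below 35 (x axis), for the 8 lineage miRNAs on the left and all 596 miRNA assays on the right; the number above each bar is its count. The lineage miRNAs lie mostly at 0 samples and none at 6, while all assays peak at 0 (244) and at 6 (201).

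miR-9 was the only member measured in most samples and the only one that met the entry rule of the test between genotypes. Entry required detection in all 3 samples of 1 group. miR-9 was detected in 3 WT and 2 KO samples. It thus entered only through WT, the group in which it was higher, which favours a lower level in KO. It came up at Ct 29.7, 30.1 and 29.3 in the WT samples, at 31.996 and 29.8 in KO replicates 2 and 3, and at 40 in KO replicate 1. Relative to the mean of the 5 controls of the sample, its log2 level was -8.60, -9.54 and -10.18 in WT, -11.72 and -10.45 in KO replicates 2 and 3, and at most -12.16 in KO replicate 1. Every KO value was under every WT value, a pattern shared by 59.9% of the 282 assays tested. The entry rule tilts this share, since 277 assays were below Ct 35 in all 3 WT samples and 206 in all 3 KO samples. The closest pair, WT replicate 3 and KO replicate 3, differed by 0.26 on the log2 scale.

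With the blank of KO replicate 1 entered at Ct 35, the mean miR-9 level was 4.01-fold lower in KO, which did not pass the test. On the log2 scale the mean was -9.44 ± 0.80 in WT and at most -11.44 in KO (SD, n = 3 per group). The KO mean holds 1 well at the ceiling. The difference was -2.003 with a standard error of 0.69, and it is an upper limit only if that blank reflects a low level. Its 95% interval was -3.65 to -0.35, before adjustment for the number of assays. This interval treats the limit as a measured value. The adjusted p over all 282 tested assays was 0.0564 (limma). By the same test 37.2% of the assays were lower in KO and 0.355% higher, and the median difference of all tested assays was -1.91. The difference of miR-9 was lower than this median by less than its own standard error, and 45.7% of tested assays had a lower one. The entry rule tilts these values toward lower in KO as well. Among the 201 assays detected in all 6 samples, which excludes miR-9, the median difference was -1.82. Of these, 115 passed, 114 of them lower in KO. With the replicate number as a block the adjusted p of miR-9 was 0.0973. The counts behind these shares lie close to the threshold. Of the 106 assays that passed, 101 had an adjusted p between 0.03 and 0.05 (limma). Without any 1 of WT replicates 1, 2 and 3 and KO replicate 2, only 3 or 4 assays passed in all. The median difference of the tested assays in these 4 fits was still between -2.06 and -1.75. Without KO replicate 1 or 3, 102 and 115 assays passed.

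The size of the miR-9 difference depends on how the KO replicate 1 well is read and on the reference. Without KO replicate 1, where every remaining value was measured, it was -1.64 (adjusted p = 0.116), and without KO replicate 3 it was -2.50 and passed (adjusted p = 0.0401). With the ceiling at Ct 38 the difference was -3.003 and with the ceiling at Ct 32 it was -1.003 (adjusted p = 0.0985 and 0.307). Relative to the mean of all miRNAs detected in all samples, which removes a change common to most miRNAs, it was -0.12 (adjusted p = 0.915). In each of these fits miR-9 was lower in KO.

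A blank in KO replicate 1 alone was a frequent pattern. Of 52 assays detected in exactly 5 samples, 45 missed KO replicate 1, and at most 3 missed any other sample. Of the 45, 30 were at Ct 40 there, among them miR-9. The mean WT Ct of the 45 ranged from 17.9 to 33.7, and 29 of them had an earlier mean than the 29.7 of miR-9. Of the 277 assays detected in all 3 WT samples, 52 were at Ct 40 in KO replicate 1, 17 in KO replicate 2 and 14 in KO replicate 3. The part of the late controls of KO replicate 1 in these blanks was not tested. Only 15.9% of the 277 assays had a later mean WT Ct than miR-9, so it was among the scarcer of the miRNAs that WT macrophages held.

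**Figure D3:**
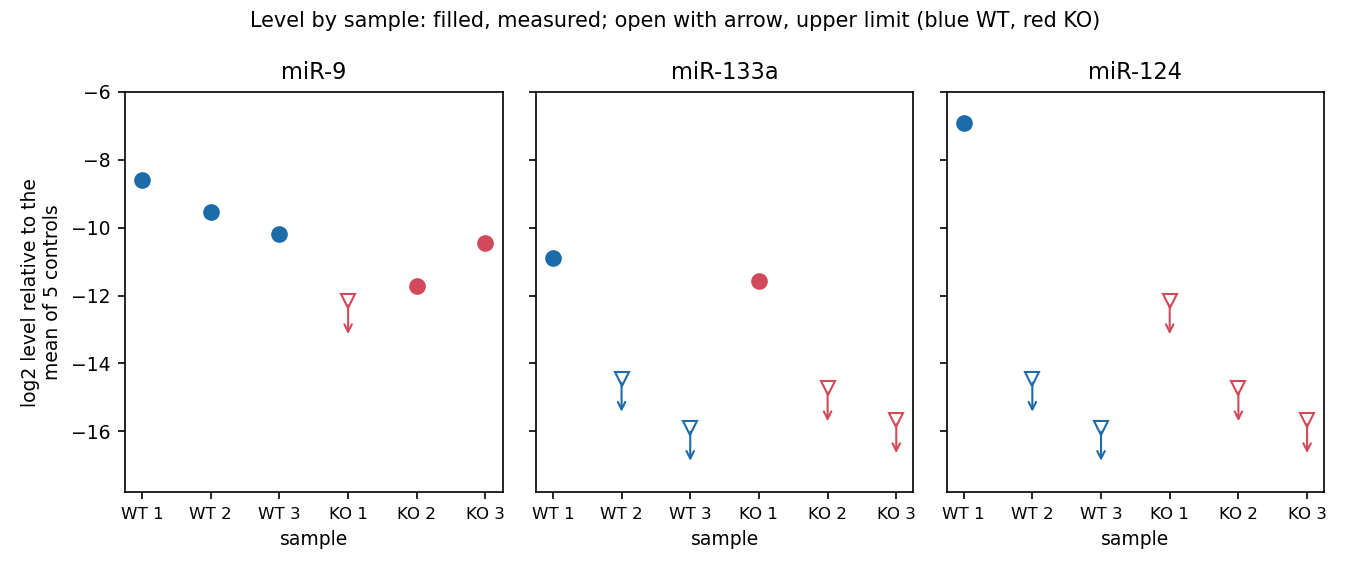
Log2 level relative to the mean of the 5 pool A controls (y axis) of miR-9, miR-133a and miR-124 in each of 3 WT (blue) and 3 KO (red) samples; filled points are measured, and open triangles with an arrow are upper limits set by the ceiling at Ct 35. miR-9 lies between -10.18 and -8.60 in WT and at -10.45 or below in KO, while miR-133a appears only in both samples numbered 1 and miR-124 only in WT replicate 1.

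miR-133a, a muscle miRNA, was detected in WT replicate 1 (Ct 31.956) and KO replicate 1 (Ct 34.4) and at Ct 40 in the other 4 samples. Relative to the controls its log2 level was -10.89 in WT replicate 1 and -11.58 in KO replicate 1, a gap of 0.69 or 1.62-fold. The gap in Ct was 2.47, of which 1.77 was also seen in the controls. In the other WT samples the level was at least 11.8-fold and 32.1-fold below that of WT replicate 1, and in KO replicates 2 and 3 at least 14.3-fold and 27.4-fold below it. The 2 samples in which it was measured thus belong to different genotypes, and samples of 1 genotype differed more than the genotypes did in replicate 1. Of 18 assays detected in exactly 2 samples, miR-133a was the only one seen in WT replicate 1 and KO replicate 1, and 4 of the 18 had 1 WT and 1 KO sample of the same number. Its near-identical relative miR-133b was at Ct 40 in both of these samples.

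miR-124, an abundant miRNA of neurons, was detected in WT replicate 1 alone, at Ct 28.0. The log2 level there was -6.91 relative to the controls, above that of miR-9 in any sample. In WT replicates 2 and 3 it was at least 185-fold and 505-fold lower. KO replicates 1, 2 and 3 lay at least 37.96-fold, 225-fold and 431-fold below that well. WT replicate 1 thus stood at least 185-fold above both other samples of its own group. Of 31 assays detected in exactly 1 sample, 8 were seen in WT replicate 1, 7 each in WT replicates 2 and 3, 0 in KO replicate 1, 1 in KO replicate 2 and 8 in KO replicate 3. Their Ct values ranged from 26.9 to 34.99 with a median of 33.0, and 1 of the 31 was earlier than miR-124.

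No bound of a difference between genotypes can be given for miR-124 or miR-133a, since 2 WT samples and at least 2 KO samples of each lie at the ceiling. When every assay detected in at least 1 sample was tested, with wells at the ceiling entered at Ct 35, miR-124 stood at -1.77 (95% interval -7.32 to 3.79; limma, adjusted p = 0.658) and miR-133a at -0.25 (-3.98 to 3.48; adjusted p = 0.917). These intervals treat limits as measured values. The other 5 members give no difference at all, because neither group rose above the ceiling in any sample. Their assays did not amplify in any of the 6 samples, so these data do not show that the assays work.

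The blank of miR-1, the main miRNA of muscle, depends on which deposited table carries the right name. A second deposited table by the authors holds relative quantities, scaled to WT. Recomputed from the Ct table, 563 of its 596 rows matched within 0.001 on the log2 scale. The other 33 rows, 6 of them in pool A, hold the values of a different name in the Ct table. In pool A the names were exchanged pairwise: miR-1 with miR-100, miR-21 with miR-210 and miR-32 with miR-320. No other member was among the 33 rows.

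Under the name miR-1, the authors' deposited table gives relative quantities of 1.37, 0.935 and 0.783 for the WT samples, 0.230, 0.314 and 0.231 for the KO samples, and a fold of 0.252 for KO over WT. The Ct values that produce these numbers stand under miR-100, and they were 22.2, 22.1 and 21.0 for the WT samples. For the KO samples they were 26.6, 23.5 and 23.0. If they were those of miR-1, it would be detected in all 6 samples, earlier than miR-9, and lower in KO by 2.04 on the log2 scale (limma, adjusted p = 0.0312). The number of members detected would then be 4 in WT replicate 1 and 2 in each of the other 5 samples. Which of the tables has the right name cannot be settled from the files. The exchange also touches miR-21 among the myeloid comparators above.

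The deposited folds of the members without amplification in any sample do not measure a change. For miR-122, miR-133b, miR-208 and miR-486 the authors' deposited table gives the same fold of 2.39 for KO over WT, and the same relative quantity of 6.75 in KO replicate 1. All 109 pool A assays at Ct 40 in all samples, outside the exchanged names, share this fold of 2.39. Because wells at Ct 40 entered as numbers, such a fold reflects the control assays alone. The authors' fold for miR-124 was 0.00109, which rests on the single WT replicate 1 well, and for miR-133a it was 0.666. For miR-9 it was 0.213, with KO replicate 1 entered at Ct 40.

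Wider lists of lineage miRNAs gave a mixed picture. For comparison with the counts below, 59.1% of all miRNA assays were detected in at least 1 sample. Of 7 skeletal and heart muscle assays, miR-133a was the only one detected in any sample, and 6 were at Ct 40 throughout, among them miR-499 and miR-208b, which like miR-208 lie in myosin heavy chain genes. Of 2 erythroid assays, that of miR-486 did not amplify in any sample. The other, miR-451, an Argonaute2-processed miRNA of red cells, was detected at Ct 34.6 in WT replicate 2 and at 33.0 and 33.5 in KO replicates 2 and 3. The liver list held miR-122 alone. Of 11 assays for miRNAs of pancreas and sensory organs, 5 were detected in at least 1 sample and 6 in none. Among them miR-184, an eye and epithelial miRNA, had Ct values from 19.8 to 26.0 and did not pass the test (log2 -1.44, adjusted p = 0.142).

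Of the 14 assays of the neural list, 9 were detected in at least 1 sample, beside 59.1% of all miRNA assays, and 5 were at Ct 40 in all. Of its 8 tested assays 2 passed as lower in KO, beside 37.2% of all tested assays, and none passed as higher. Their median difference was -2.05 beside -1.91 for all tested assays. miR-383 went the other way without passing (log2 1.34, SE 0.64; limma, adjusted p = 0.128). It was detected in 1 WT and all 3 KO samples, at Ct 32.2 to 34.8, near the ceiling. It thus entered the test only through KO, the group in which it was higher, which favours this direction. WT replicates 1 and 2, at Ct 40, were entered at Ct 35. miR-128a fell by 2.16 on the log2 scale (SE 0.52; limma, adjusted p = 0.0312) and miR-7a fell by 2.09 (SE 0.62; adjusted p = 0.0408). Without WT replicate 1, 2 or 3 or KO replicate 2 neither passed (adjusted p from 0.0560 to 0.138), and without KO replicate 1 or 3 miR-7a did not (0.0686 and 0.0740). Relative to the mean of all miRNAs, or without a reference, neither passed (adjusted p from 0.256 to 0.868), nor when every assay detected in at least 1 sample was tested (0.0566 for miR-128a and 0.0689 for miR-7a). With the ceiling at Ct 32 or U6 alone as reference miR-7a did not pass (0.161 and 0.0526). miR-129-3p, with Ct values from 25.8 to 31.2, did not pass (-1.65, adjusted p = 0.14), nor did miR-218, which ranged from 27.9 to 34.6 (-1.23, SE 1.71; adjusted p = 0.603; the log2 difference was 0.054 without WT replicate 1 and -3.26 without WT replicate 3). Several of these miRNAs are known outside neurons, so detection of a list member does not mark neural cells.

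The assays whose profile lay nearest to that of miR-9 over the 6 samples were miR-500, miR-10a and miR-193*. The measure was the root mean square difference between log2 levels after subtraction of each assay's mean, computed against 252 assays detected in at least 5 samples. It was 0.37 for miR-500, 0.41 for miR-10a and 0.41 for miR-193*, beside a median of 0.87. The Ct of miR-500 was 25.9, 26.0 and 24.7 in the WT samples, and 30.5, 27.3 and 26.0 in the KO samples. All 3 neighbours were lowest in KO replicate 1, where miR-9 has only an upper limit. These 4 profiles share the same samples and controls, and the likeness is a description.

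**Figure D4:**
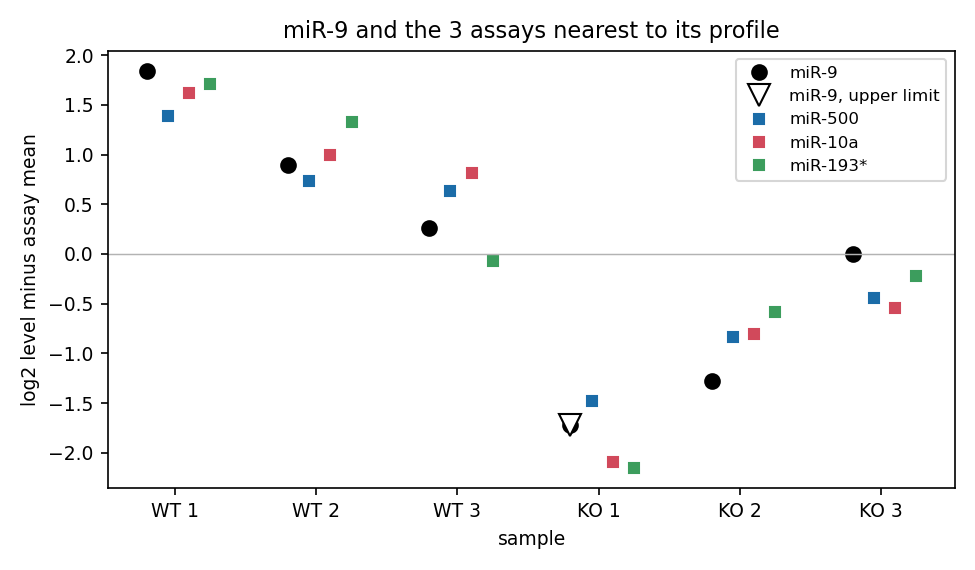
Log2 level relative to the controls minus the mean of each assay (y axis) for miR-9 (black) and the 3 assays nearest to it, miR-500, miR-10a and miR-193*, in each of 3 WT and 3 KO samples (x axis); the white triangle is the upper limit of miR-9 in KO replicate 1. All 4 assays are highest in WT replicate 1 and lowest in KO replicate 1.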

How the data were processed

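Ct scores of 608 assays in 6 samples were deposited by the authors, with wells without amplification at 40; per the labels' protocols RNA was reverse transcribed and preamplified with TaqMan reagents, and the instrument and software are not given in the sources used here. Deposited relative quantities and folds are ratios and were used as described values only. Member rows were found by name after removal of the prefix and assay number, without passenger strands. Ct values at or above 35 were set to 35, and the log2 level is minus the difference from the mean of 5 controls of the same pool and sample. Assays below 35 in all 3 samples of 1 group entered limma 3.58.1 (R 4.3.3, two-sided, Benjamini-Hochberg over all tested, threshold 0.05). The fit was run on simulated data with independent noise, changes in both directions and every well detected. Those settings differ from these data, so the simulation does not show how reliable the calls here are. Python 3.11.15, numpy 2.4.6, pandas 2.3.3 and matplotlib 3.10.9 did the rest. All members, 5 myeloid comparators, the 3 nearest assays of any member detected in 4 or more samples, and up to 4 detected assays a list were named. In addition miR-499, miR-208b and miR-383 were named after their values were seen. The members and lists were chosen with earlier results of these data known. Same-numbered samples of WT and KO, which the labels number without stating a batch, deviated together from their group means (correlations 0.23, 0.28 and 0.27 over tested assays), so a blocked fit on that number is also reported. The labels call the samples biological replicates, and their number limits the precision. Alternatives were other ceilings, floors, references, filters, row names, left-out samples and the block.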

Additional observations from a re-analysis of the deposited data

How the results depend on the processing

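Of 11 alternatives for the number of members detected, 10 gave differences from -1.0 to -0.67, and leaving out WT replicate 1 gave 0. This tally adds no support for a direction. In every alternative that kept WT replicate 1, that sample held more members than any other. No member well lay between Ct 35 and 40, so ceilings of 38 and 40 could not change the counts. The difference of miR-9 was negative in all 17 alternatives that gave one, from -3.25 (floor set after scaling, at the earliest controls) to -0.12, and it passed the threshold in 1 of them, without KO replicate 3; with detection required in all 6 samples miR-9 was not tested. The number of assays past the threshold was 106, and it was 3 with the global mean, 2 without a reference, 3 with assays detected in at least 1 sample, and 3 to 115 when 1 sample was left out (3 or 4 without WT replicate 1, 2 or 3 or KO replicate 2). The replicate block gave 119 and changed no call of miR-9, miR-128a, miR-7a, miR-129-3p, miR-218 or miR-184. With the global mean miR-128a and miR-7a stood at -0.27 and -0.20, and miR-129-3p, miR-218 and miR-184 turned to 0.24, 0.66 and 0.45. miR-218 ranged from -3.26 to 0.054 with 1 sample left out. The row names and the floor at the latest controls were tried after seeing the data. Levels more than 4580-fold below the controls were out of reach in KO replicate 1.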
